A study of Mus musculus with 12 samples.

Results

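The 34 genes described here are the membrane transporters and ion channels listed for colon RNA of Control and dextran sulfate sodium (DSS) mice, other than 6 listed genes of colonocyte ion and bile acid transport (Slc26a3, Slc26a2, Slc20a1, Slc4a4, Slc51b and Trpm6). They were chosen by symbol alone, from 912 features that the Control and DSS libraries both list. The prefixes were those of solute carriers (Slc), ABC transporters, ATPases (Atp), aquaporins, potassium, sodium and calcium channels and their subunits (Kcn, Scn, Cacn), TRP channels, CLCA proteins, chloride channels and anoctamins (Ano). Of the 34, 16 are Slc genes, 6 Kcn, 3 each Atp, Clca and Trp, and the rest Scn or Ano. Each library lists a part of the transcriptome in FPKM. This unit divides the fragments of a gene by its length in kilobases and by the library total in units of 1000000, so levels of different genes can be compared per length.

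RNA was taken from mouse colon, from 4 groups of 3 libraries. Control mice were given ddH2O. DSS mice had 2.5% DSS, a sulfated dextran that damages the colon epithelium when drunk, for 5 days and water for the next 5 days, in 3 cycles. BXD_L and BXD_H mice went through the same 3 cycles and were given Banxia Xiexin Decoction, a multi-herb preparation, at 7.60 or 15.2 g/kg per day. The labels used here give no strain, age or sex. Nor do they say which libraries came from different mice, so the p-values rest on library-to-library spread alone, which may be technical.

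Salt, water and nutrients cross the colon epithelium through pairs of transport proteins on the luminal and the basal side of the cell. Channels there are often a pore protein with accessory subunits that set when it opens and how much of it reaches the membrane. Solute carriers exchange or co-transport ions, sugars, amino acids, phosphate and metals, also across the membranes of mitochondria and lysosomes. Genes of these families are not limited to colonocytes: phagocytes, smooth muscle, nerve and tuft cells, the chemosensory cells of the gut lining, use their own sets.

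Every feature of the 912 differed between Control and DSS by at least 1.87-fold in mean, so the list is a selection that separates these same libraries. Differences between those groups are therefore given as a description of size and direction, and their p-values are not independent evidence that a gene changed. The spacing of low values implied totals of 14400000 to 19200000 fragments in the 6 Control and DSS libraries and 12400000 to 18200000 in BXD_H. The description text of Control replicate 3 and of DSS replicate 3 names the next group, against the title and the treatment label, and results are given with and without them where they change. Among listed markers of the labelled tissue, the surface colonocyte genes Car4 and Slc26a3 averaged 728 and 198 FPKM in Control. Igkc, an antibody light chain gene, took 19.4 to 24.1% of the listed FPKM in Control and 35.6 to 37.9% in DSS. Since FPKM are shares of a library, a rise of such a gene can lower the FPKM of the others. By how much cannot be read from its share of the listed FPKM, which cover only a part of the transcriptome.

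Of the 34 genes, 23 had a higher mean in DSS and 11 a lower one. The share with a lower mean was 32.4%, beside 19.8% of all 912 features, of which 80.2% had a higher one. In 30 of the 34 (88.2%) the Control and DSS libraries did not overlap, beside 95.2% of all features. The exceptions were Atp13a4, Atp7b, Kcnh3 and Slc25a34. Only 15 genes passed the filter on low values, which asks for 3 libraries of the 12 at 1 FPKM or above, and of these 9 rose and 6 fell in limma's test at an adjusted p of 0.05. Among the rises, Kcne4, Slc6a20a and Slc15a3 met the filter only with DSS libraries counted, the group in which they are high. Their p-values are given as description alone. The falls that passed were 2 without Control replicate 3, and likewise 2 with both libraries of conflicting description left out. Among all 576 features tested 99.1% were called, 79.2% higher and 20.0% lower, so that a call by itself says nothing particular about a gene here. Over all 34 genes the median change was 0.33 on the log2(FPKM + 1) scale, which understates changes of low genes, and over the 912 features it was 0.67. Because most listed features are higher in DSS, subtracting each library's median over the listed features, on the log2 scale, takes 0.65 off every change. The 6 falls and the rise of Clca4b still passed after that. The other 7 rises that could be tested kept a positive change that did not pass (0.05 to 0.40). Of the 23 genes with a higher mean 15 turned lower, Kcnh3 and 14 untested ones. These are low genes, whose changes before the subtraction were 0.24 to 0.61 on this scale and 0.97 to 1.53 with a pseudocount of 0.1. Their turn therefore depends on the pseudocount and does not show that they fell.

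Most of the abundant genes were lower in DSS, while the lower genes as a set were both abundant and low ones. Split by the mean over the 6 libraries, 8 genes stood at 5 FPKM or more and 6 of them were lower in DSS (75.0%), beside 25.7% of the 249 listed features at that level. Below 5 FPKM, 5 of 26 were lower (19.2%), beside 17.6% of 663 features. These shares are descriptions and were not tested.

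**Figure D1:**
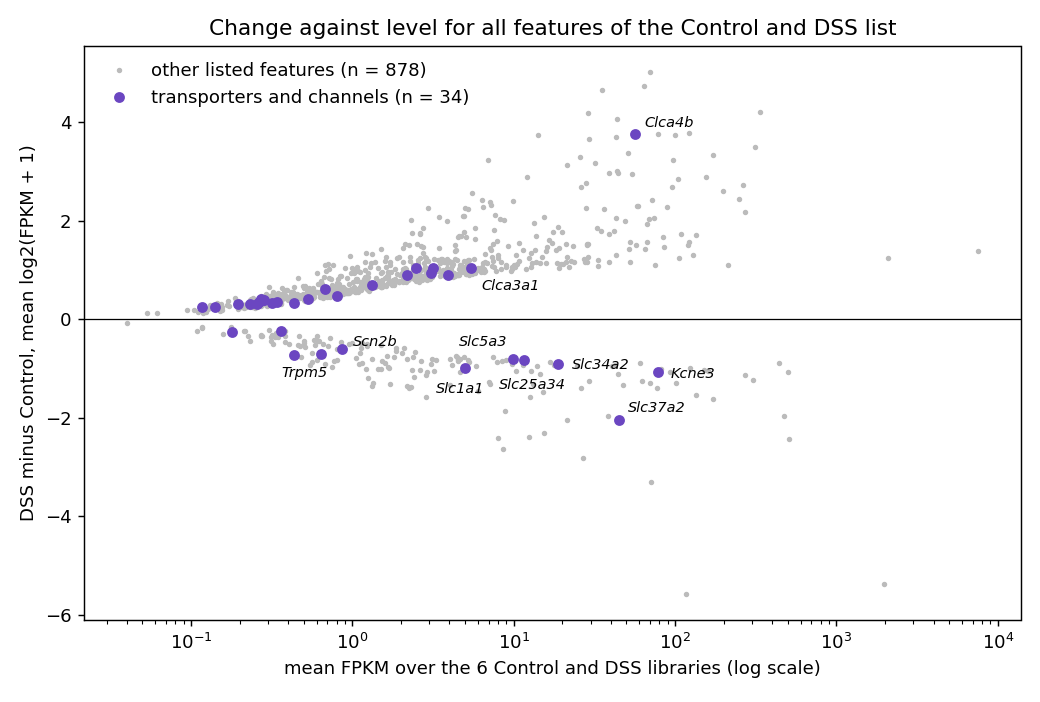
Mean change, DSS minus Control on the log2(FPKM + 1) scale, against the mean FPKM of the 6 libraries (log axis), for the 34 transporters and channels (purple) and the other 878 listed features (grey). Of the 8 purple points at 5 FPKM or more, 6 lie below 0 and Clca4b lies near 3.76. The empty band around 0 shows that the list is a selection.

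The highest rise among the 34 genes was that of a CLCA gene, Clca4b. CLCA proteins are secreted or membrane-attached proteins that regulate calcium-activated chloride channels. Clca4b (ENSMUSG00000074195) stood at 5.03, 4.97 and 8.10 FPKM in Control and at 46.3, 185 and 91.6 FPKM in DSS. The groups did not overlap, and DSS replicate 2 was highest. The mean rose 17.8-fold, from 6.03 ± 1.79 to 108 ± 70.8 FPKM (SD over 3 libraries per group, here and below) (3.76 in log2 terms, SE 0.49, limma adjusted p = 0.00133). Without DSS replicate 2 the log2 change was 3.26. By mean FPKM, Clca4b was the highest of the 34 genes in DSS, and Kcne3 was the highest in Control. Clca3a1 (ENSMUSG00000056025), a neighbour in the same cluster, stood at 3.12, 2.91 and 3.64 FPKM and then at 7.09, 8.36 and 7.44 FPKM, with tight groups that did not overlap (log2 change 1.03, SE 0.21, limma adjusted p = 0.00396). The third, Clca4c-ps, is annotated as a transcribed pseudogene and averaged 0.103 FPKM in Control and 0.460 FPKM in DSS, about 1 to 9 and 10 to 40 fragments per library.

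All 3 lie on the minus strand of mouse chromosome 3 (mm10): Clca3a1 from 144729677 to 144760977, Clca4c-ps from 144861826 to 144896011 and Clca4b from 144910921 to 144932529. The cluster holds 8 annotated genes, and Clca4a, Clca1, Clca2, Clca3a2 and Clca3b were not analysed here. The longest transcript of Clca4b matched that of Clca4a at 95.5% of 2998 aligned bases and that of Clca4c-ps at 94.5% of 2771. Clca3a1 and Clca3a2 matched at 95.4% over 2169 bases. The longest run without a difference was 168 bases between Clca4b and Clca4a, 117 bases between Clca4b and Clca4c-ps and 242 bases between Clca3a1 and Clca3a2. A stretch of 100 bases of the coding sequence, bases 1001 to 1100 of the Clca4b transcript in GENCODE M21, is shown to let the relatives be compared, 5′ to 3′, with capitals at the bases that differ from Clca4b.
Clca4b: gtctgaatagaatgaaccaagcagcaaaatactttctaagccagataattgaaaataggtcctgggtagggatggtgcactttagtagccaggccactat
Clca4a: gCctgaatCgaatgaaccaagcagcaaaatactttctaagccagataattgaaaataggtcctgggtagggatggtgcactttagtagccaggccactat
Clca4c-ps: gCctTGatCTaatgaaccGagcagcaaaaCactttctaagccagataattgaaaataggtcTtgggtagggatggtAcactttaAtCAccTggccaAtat
Here Clca4a differed at 2 bases and Clca4c-ps at 14. The sources used here do not state how the authors assigned fragments that fit several genes, so the split of FPKM among these relatives is uncertain, while each of the 3 listed genes was higher in DSS. The longest transcripts of Clca4b and Clca3a1 share at most 20 bases in a row. Their ratio went from 1.61, 1.71 and 2.23 in the Control libraries to 6.52, 22.1 and 12.3 in the DSS libraries. The FPKM assigned to the 2 genes thus changed unequally. Fragments of Clca4a or Clca3a2 may be part of these values, so the ratio cannot show how far the 2 genes themselves differed.

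The largest fall among abundant members was that of Slc37a2 (ENSMUSG00000032122, chromosome 9 from 37227585 to 37255738, minus strand), a sugar-phosphate exchanger of the endoplasmic reticulum. Its libraries held 67.5, 73.9 and 70.8 FPKM in Control and 17.4, 7.77 and 31.7 FPKM in DSS. Control was tight and DSS was spread, with DSS replicate 2 lowest and no overlap. The log2 change was −2.04 (SE 0.47, limma adjusted p = 0.00493), and −1.55 without DSS replicate 2. In bulk tissue, fewer cells of a type and less RNA per cell cannot be told apart, here or below. DSS replicate 2 was also the lowest library for Car4 (230.1, 72.9 and 369 FPKM in DSS replicates 1, 2 and 3) and Slc26a3 (90.0, 35.9 and 88.1 FPKM), and for 6 of the 11 genes with a lower mean in DSS, beside 115 of the 181 listed features with a lower mean. Of listed features with a higher mean, 453 of 731 were highest in DSS replicate 2, beside 10 of the 23 genes.

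The 250 bases before the RefSeq start are shown for the member with the highest rise and the abundant member with the largest fall, on GRCm38.p6 and 5′ to 3′ on the gene's strand (minus for both), with capitals at a searched motif.
Clca4b, chr3:144932530-144932779: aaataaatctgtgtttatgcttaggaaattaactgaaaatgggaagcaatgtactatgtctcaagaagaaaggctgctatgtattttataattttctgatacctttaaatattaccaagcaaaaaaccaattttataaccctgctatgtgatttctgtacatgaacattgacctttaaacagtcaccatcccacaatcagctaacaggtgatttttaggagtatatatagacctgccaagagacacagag
Slc37a2, chr9:37255739-37255988: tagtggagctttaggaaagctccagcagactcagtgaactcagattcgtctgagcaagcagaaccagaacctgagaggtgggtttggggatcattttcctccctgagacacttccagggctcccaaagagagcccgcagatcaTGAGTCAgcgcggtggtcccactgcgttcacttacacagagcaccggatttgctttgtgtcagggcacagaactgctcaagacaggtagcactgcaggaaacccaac
The capitals mark TGANTCA, the letters of the AP-1 motif, which start 107 bases before the start of Slc37a2. Both strands were searched for these letters, for TTCNNNGAA (STAT), CAAAGTCCA (HNF4A), TTTATNG (CDX2) and for the NF-kB motif, with overlaps allowed. The Clca4b window held none of them. Windows were found for 28 of the 34 genes, and TGANTCA stood in 4 of them (14.3%: Atp8b4, Kcne3, Kcnip3 and Slc37a2), beside 6.87% of 27025 gene windows of the same length. STAT, CDX2 and NF-kB letters each stood in 3 of 28 windows (10.7%), beside 7.18, 10.2 and 7.01% of all windows, and the HNF4A letters in 0 of 28, beside 0.381%. A match of letters is a description of the sequence and not a bound site.

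Among potassium channel genes the accessory subunit Kcne3 fell, and the other 5 had a higher mean in DSS. KCNE3 is the beta subunit that holds the epithelial KCNQ1 channel open on the basal side of colonocytes, which drives chloride secretion. Kcne3 (ENSMUSG00000035165, chromosome 7 from 100176502 to 100184869) was the most abundant of the 34 genes in Control, at 102, 90.5 and 130.4 FPKM, and stood at 56.0, 50.3 and 44.1 FPKM in DSS. No DSS library reached the Control range, and the DSS values lay close together (log2 change −1.08, SE 0.32, limma adjusted p = 0.0108). Without Control replicate 3 the change was −0.93 and did not pass (limma adjusted p = 0.0527), and without the 2 libraries of conflicting description it was −0.84 (limma adjusted p = 0.107). Kcne4, a relative that inhibits KCNQ1, rose from 1.41, 1.33 and 0.950 FPKM to 3.25, 5.75 and 2.28 FPKM (log2 change 1.03, SE 0.27, limma adjusted p = 0.00675), again highest in DSS replicate 2. Kcne4 met the filter on low values only with DSS libraries counted. Within each library Kcne3 stood 72.1, 68.1 and 137 times above Kcne4 in Control and 17.2, 8.75 and 19.3 times in DSS. A ratio within a library does not move with its scaling, but it shows only that the change was unequal.

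The remaining potassium channel genes were low. Kcnip3, a calcium-binding partner of A-type channels, averaged 0.330 ± 0.0985 FPKM in Control and 1.03 ± 0.117 FPKM in DSS, from 13 to 26 and from 61 to 62 implied fragments. Kcnmb4, a beta subunit of the calcium-activated BK channel, averaged 0.117 and 0.413 FPKM, and Kcnj16, an inward rectifier subunit, 0.0733 and 0.320 FPKM. In these 3 genes every DSS library lay above every Control library, but Control levels of Kcnmb4 and Kcnj16 rest on at most 7 fragments. Antisense transcripts of Kcnmb4 overlap up to 20.8% of its exon bases, and the sources used here do not state whether counting used strand.

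Kcnh3, a voltage-gated channel of the EAG family, is the single gene of the 34 that a decoction group lists. It stood at 0.240, 0.0200 and 0.0600 FPKM in Control, at 0.230, 0.480 and 0.640 FPKM in DSS and at 1.24, 1.09 and 1.04 FPKM in BXD_H. Control and DSS overlapped, and each BXD_H library lay above all 6 others. It passed the filter on low values only through BXD_H. Between DSS and Control the log2 change was 0.38 (SE 0.14, limma adjusted p = 0.0223), a call that was lost without any one of Control replicate 2 (0.33), Control replicate 3 (0.36), DSS replicate 2 (0.37) or DSS replicate 3 (0.29), and with both libraries of conflicting description left out (0.26). The mean was 0.450 FPKM in DSS and 1.12 FPKM in BXD_H, a log2 difference of 0.56, which is given as a description with no test, since the gene met the filter through the group in which it is high. BXD_H lists 95 features, of which 19 are also in the DSS list and 17 were tested, and 94.1% of these were called, 70.6% higher and 23.5% lower. The rule that selected the BXD_H features is not stated, and both comparisons share the DSS libraries. With a pseudocount of 0.1 the differences were 1.48 (DSS against Control) and 1.23 (BXD_H against DSS), since the gene is low: about 2 to 20 fragments per Control library. BXD_L lists 8 features and none of the 34 genes.

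**Figure D2:**
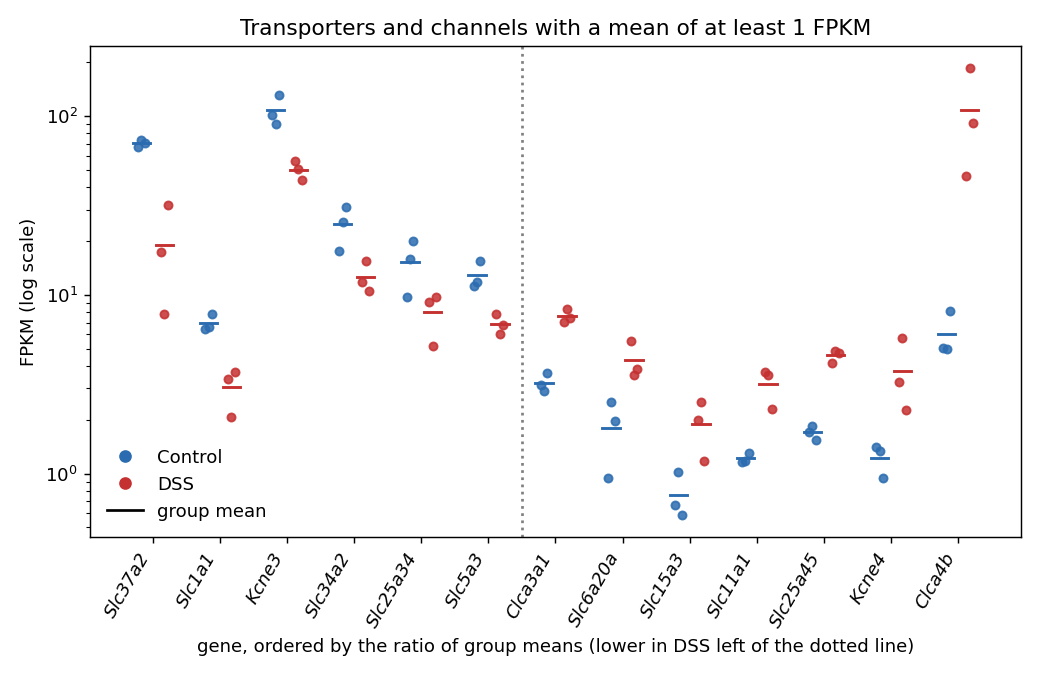
FPKM (log axis) of each Control (blue) and DSS (red) library for 13 of the 14 genes with a mean of at least 1 FPKM, ordered by the ratio of group means, with bars at the means of 3 libraries. Among those plotted the groups overlap for Slc25a34 alone, and Clca4b rises from about 6 to 108 FPKM.

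Scn2b, a small accessory subunit of voltage-gated sodium channels, held 0.940, 1.59 and 1.24 FPKM in Control and 0.50, 0.52 and 0.37 FPKM in DSS. The groups did not overlap, and the gene did not meet the filter on low values.

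Among solute carriers, 4 rose and 5 fell of 9 tested, and 6 of the other 7 had a higher mean in DSS. Those that fell serve phosphate, amino acid, sugar-related and mitochondrial transport. Slc34a2, the sodium-phosphate cotransporter of epithelia, went from 17.6, 25.6 and 31.2 FPKM to 11.8, 15.5 and 10.5 FPKM (log2 change −0.91, SE 0.32, limma adjusted p = 0.0203). The nearest libraries of its groups, 17.6 and 15.5 FPKM, were close. Slc1a1, a carrier of glutamate and aspartate, went from 6.44, 6.63 and 7.84 FPKM to 3.37, 2.08 and 3.69 FPKM (−0.997, SE 0.24, limma adjusted p = 0.00531). On the opposite strand 4430402I18Rik overlaps 31.9% of the exon bases of Slc1a1. Slc5a3, the sodium/myo-inositol cotransporter that helps cells hold osmolytes, went from 11.3, 11.9 and 15.4 FPKM to 7.80, 6.05 and 6.76 FPKM (−0.81, SE 0.25, limma adjusted p = 0.0128). Its 1.87-fold difference in mean is the smallest of the 34 genes and marks the lower edge of the whole list.

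Slc25a34, a member of the mitochondrial carrier family, stood at 9.71, 15.9 and 19.9 FPKM in Control and 9.06, 5.18 and 9.75 FPKM in DSS (log2 change −0.84, SE 0.35, limma adjusted p = 0.0412). DSS replicate 3 lay just above Control replicate 1. Its call was lost without Control replicate 2 (−0.78), Control replicate 3 (−0.62) or DSS replicate 2 (−0.59). Slc34a2 lost its own without Control replicate 2 (−0.87), Control replicate 3 (−0.73), DSS replicate 1 (−0.87) or DSS replicate 3 (−0.80), and Slc5a3 without Control replicate 3 (−0.68). Without the 2 libraries of conflicting description 2 of the 6 falls passed, Slc37a2 (−2.50) and Slc1a1 (−1.04), while Slc34a2 (−0.62), Slc25a34 (−0.77) and Slc5a3 (−0.67) did not. Slc37a2 and Slc1a1 passed in every fit that left out 1 library.

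Slc25a45, another mitochondrial carrier, rose from 1.71, 1.85 and 1.54 FPKM to 4.13, 4.88 and 4.74 FPKM (log2 change 1.05, SE 0.18, limma adjusted p = 0.00326). Both groups were narrow. The ratio of Slc25a34 to Slc25a45 was 5.68, 8.62 and 12.9 in Control and 2.19, 1.06 and 2.06 in DSS. Slc6a20a, a proline and imino acid carrier, rose from 0.940, 2.50 and 1.98 FPKM to 5.51, 3.55 and 3.86 FPKM (0.94, SE 0.27, limma adjusted p = 0.0088). It too met the filter on low values only with DSS libraries counted.

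Slc11a1 and Slc15a3 rose as well. SLC11A1, also called NRAMP1, exports divalent metals from phagosomes of macrophages and neutrophils, and SLC15A3 moves peptides and histidine out of lysosomes of immune cells. Slc11a1 went from 1.16, 1.18 and 1.31 FPKM to 3.68, 3.54 and 2.30 FPKM (log2 change 0.90, SE 0.19, limma adjusted p = 0.00434). Slc15a3 went from 0.67, 1.02 and 0.59 FPKM to 2.00, 2.50 and 1.18 FPKM (0.70, SE 0.21, limma adjusted p = 0.0109), and met the filter on low values only with DSS libraries counted. DSS replicate 3 was lowest of its group for both, and neither overlapped Control. Tmem132a, on the opposite strand, covers 28.1% of the exon bases of Slc15a3. Listed macrophage and monocyte markers, 4 of a list of 8 (Cd68, Ccr2, Cx3cr1 and Fcgr1), summed to 16.1 to 21.6 FPKM in Control and 39.4 to 47.7 FPKM in DSS, also lowest in DSS replicate 3. Listed neutrophil markers, 5 of 6, summed to 1.29 to 1.67 FPKM and 7.00 to 49.9 FPKM, with DSS replicate 2 highest. Cxcr2 was at 0 in 2 Control libraries, and no listed macrophage marker was at 0. The part of these cells in the rise was not tested.

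The solute carriers without a test had group means of at most 1.10 FPKM. Slc30a10, an exporter of manganese, stood at 0.340, 1.12 and 0.930 FPKM in Control and 0.080, 0.030 and 0.10 FPKM in DSS, where it rests on 3 to 11 implied fragments per library. Every DSS library lay below every Control library. The long noncoding gene Gm2061, which overlaps 9.1% of its exon bases on the opposite strand, is also listed, at 0.433 FPKM in Control and 0.0333 FPKM in DSS. Higher in DSS without overlap were Slc36a2, a proton-coupled amino acid carrier (0.503 to 1.10 FPKM), Slc8a3, a sodium-calcium exchanger (0.273 to 0.600), Slc13a3, a dicarboxylate carrier (0.120 to 0.397), Slc5a5, the iodide carrier (0.10 to 0.367), Slc7a15 of the amino acid carrier family (0.0467 to 0.233) and Slc9a4, a sodium-proton exchanger (0.0233 to 0.210). Slc9a4 rests on 1 to 2 implied fragments per Control library and Slc7a15 on 1 to 4, so no fold is given for them.

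**Figure D3:**
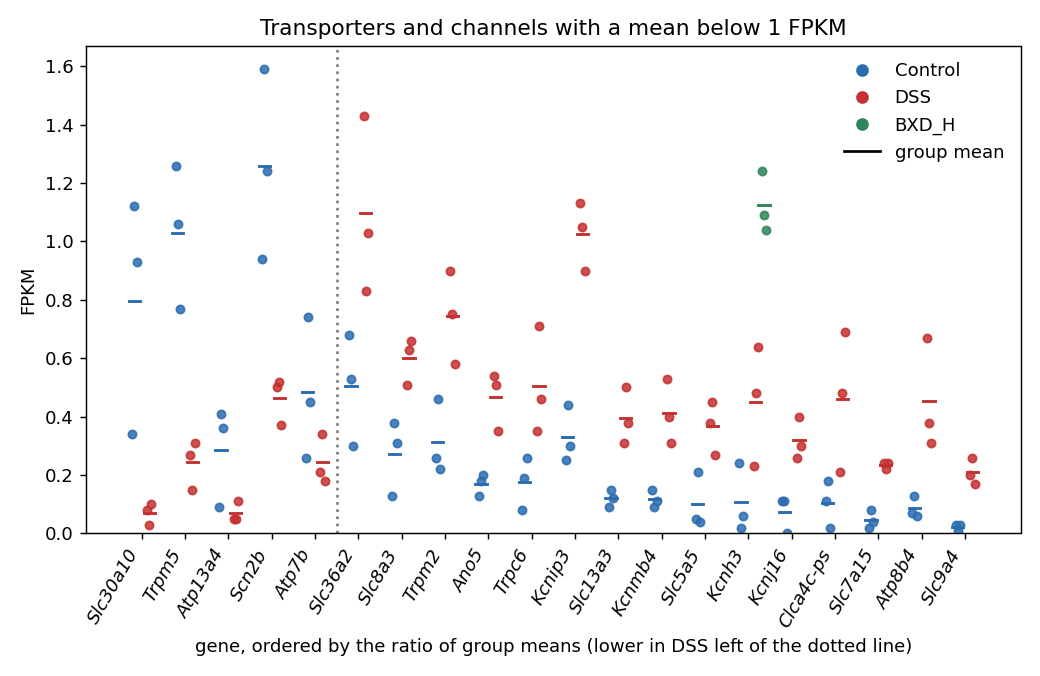
FPKM (linear axis) of each Control (blue) and DSS (red) library for the 20 genes with a mean below 1 FPKM, ordered by the ratio of group means, with bars at the means and BXD_H (green) for the single gene it lists. Of the 20, 5 have a lower mean in DSS, and Kcnh3 in BXD_H lies between 1.04 and 1.24 FPKM, above its 6 other libraries.

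TRP channels and ATPases were low and had no test. Trpm5, the cation channel of taste and tuft cells, stood at 1.26, 1.06 and 0.770 FPKM in Control and 0.270, 0.150 and 0.310 FPKM in DSS, a 4.23-fold lower mean with no overlap. Of 7 tuft and enteroendocrine markers the other listed one was Sh2d6, at 4.61, 2.95 and 2.95 FPKM in Control and 1.07, 0.960 and 1.54 FPKM in DSS (log2 change −1.03, limma adjusted p = 0.00409). Trpm5 and Sh2d6 were both highest in Control replicate 1 and lowest in DSS replicate 2. The part of tuft cell number in their levels was not tested. Trpm2, a calcium-permeable channel of phagocytes gated by ADP-ribose, stood at 0.260, 0.460 and 0.220 FPKM and then at 0.900, 0.750 and 0.580 FPKM. The ratio of Trpm2 to Trpm5 was 0.206, 0.434 and 0.286 in Control and 3.33, 5.00 and 1.87 in DSS. Trpc6, a receptor-operated cation channel, averaged 0.177 and 0.507 FPKM.

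**Figure D4:**
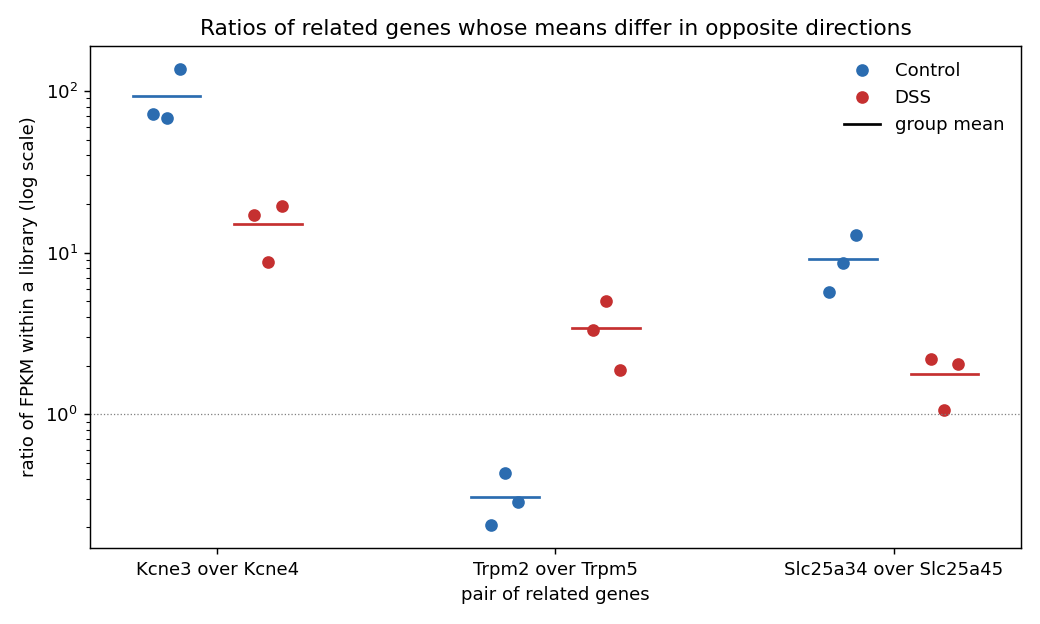
Ratio of the FPKM of 2 related genes within each Control (blue) and DSS (red) library, on a log axis, with bars at the means of 3 libraries. The 3 pairs plotted were picked because their members differed in opposite directions, so their separation is a description: Kcne3 over Kcne4 averaged 92.5 in Control and 15.1 in DSS, and Trpm2 over Trpm5 0.309 and 3.40.

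Among the ATPases, Atp7b, which moves copper, had the highest Control mean, at 0.260, 0.740 and 0.450 FPKM in Control and 0.210, 0.340 and 0.180 FPKM in DSS, with overlapping groups. Atp13a4, of the P5 ATPases, averaged 0.287 ± 0.172 and 0.0700 ± 0.0346 FPKM and overlapped as well. Atp8b4, a lipid flippase of the P4 ATPases, averaged 0.0867 ± 0.0379 and 0.453 ± 0.191 FPKM, without overlap, from 6 to 14 implied fragments in Control. Ano5, an anoctamin, stood at 0.13, 0.18 and 0.20 FPKM in Control and 0.54, 0.51 and 0.35 FPKM in DSS.

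A list of 57 genes of colon salt and water transport puts these genes beside the rest of that pathway. The files list 11 of the 57 for Control and DSS, all 11 were tested, and 10 fell and 1 rose, with a median log2 change of −1.33 beside 0.67 for the 912 features. Of all 576 features tested, 20.0% fell and 79.2% rose. The list was written with earlier results of these data known. The rise was that of Clca4b, and Kcne3 is the other of the 34 genes among them. Outside the 34, Sgk1, a kinase that keeps sodium channels at the membrane, fell from 61.1 ± 10.4 to 27.7 ± 6.33 FPKM (log2 change −1.12, limma adjusted p = 0.00929). Fxyd4, a regulator of the sodium pump, fell from 6.56 ± 4.52 to 1.53 ± 0.588 FPKM (−1.33, limma adjusted p = 0.034), although its Control replicate 1, at 1.35 FPKM, lay within the DSS range of 0.850 to 1.91 FPKM. Summed over the 11 genes, DSS replicate 2 was lowest, at 444 FPKM, beside 617 and 764 FPKM in the other DSS libraries and 1140 to 1640 FPKM in Control.

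Beside the lower transporters, 3 of 10 absorptive colonocyte markers were listed (Car4, Slc26a3 and Saa1), and all 3 fell, beside 20.0% of all features tested. Their sum was 1030 to 1660 FPKM in Control and 258 to 631 FPKM in DSS. Listed goblet (Ang4 and Retnlb, 2 of 9) and stem cell (Ascl2 and Axin2, 2 of 4) markers all fell as well. The goblet markers were uneven in Control, where Ang4 stood at 608, 84.5 and 6.87 FPKM and Retnlb at 127, 21.4 and 4.52 FPKM. For Retnlb the groups overlapped, with DSS replicate 2 at 4.75 FPKM. Listed fibroblast markers, 6 of 8, all rose, beside 79.2% of all features tested. They summed to 130 to 158 FPKM in Control and 375 to 737 FPKM in DSS. No listed colonocyte or fibroblast marker was at 0. Smooth muscle, neuron and glia lists, whose cells use several of the channel genes above, had no gene to set beside them. The part of cell composition in the channel and transporter changes was not tested.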

How the data were processed

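Per the file headers, each library's file gives FPKM, which the authors deposited rounded to 2 decimals. The submitters' processing notes name bcl2fastq, FastQC, fastp and mm10, without versions, and the labels' protocols give TRIzol extraction and a NEBNext Ultra RNA kit. For the aligner, counting program, strand use, annotation and selection rule, nothing is given in the sources used here. Groups follow the titles. Identifiers were matched to GENCODE M21 (GRCm38), which named 981 of 991 features. Library totals were those, between 5000000 and 30000000, at which FPKM times exon length gave whole fragments (within 0.2) for short genes. At these totals 90.9 to 100.0% of 11 to 114 genes were whole. Implied fragments assume that exon length. BXD_L has too few short genes.

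Values were fitted as log2(FPKM + 1) with limma 3.58.1 in R 4.3.3 on every listed feature, 1 mean per group over all 12 libraries, trended spread, and a two-sided p. Benjamini-Hochberg adjustment covered all features that passed the filter. The fit was tested on simulated data. Transcripts were aligned with blastn 2.17.0+. Any 2 libraries of 1 group had at most 25 of 912 values in common.

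The members and lists were chosen with earlier results of these data known. Values of every library were given for up to 10 rises and 10 falls with a group mean of at least 5 FPKM, for genes a decoction group lists and for the highest gene of each family. The other genes whose libraries are printed, and the pairs behind the ratios, were chosen after their values were seen. Alternatives changed the pseudocount, the filter, the scaling, the libraries fitted and the replicate block. The values of 1 member are not reported here, though it stays in the counts.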

Additional observations from a re-analysis of the deposited data

How the results depend on the processing

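With pseudocounts of 0.1 and 0.5, 15 members passed, as in the fit reported. Without the filter on low values 33 of 34 passed (23 higher, 10 lower), and with an FPKM of at least 5 in 3 libraries 8 passed (2 higher, 6 lower), since fewer genes are tested. Subtracting each library's listed median, which takes 0.65 off each change, left 7 calls of 14 tested, the 1 rise of Clca4b (3.11) and 6 falls. Leaving out 1 library gave 10 to 15 calls, 8 to 9 of them rises and 2 to 6 falls. The count of falls was 2 without Control replicate 3, and also 2 with both libraries of conflicting description left out, which gave 10 calls in all. The labels give groups the same replicate numbers. Deviations of same-numbered Control and DSS libraries had correlations of −0.05, 0.02 and 0.08, beside −0.13 to 0.1 for other numbers. With 3 libraries per group, these values cannot settle whether same-numbered libraries were paired. The replicate block, run on Control and DSS alone, gave 14 calls of 14 tested (8 rises, 6 falls). Kcnh3 did not meet the filter without BXD_H. For BXD_H against DSS, Kcnh3 met the filter only through all 3 BXD_H libraries, so alternatives that keep them say nothing about its stability. BXD_L gave 0 members, with none to test at any p, and its block could not be fitted. Among alternatives for single tested genes 181 kept direction and call, those of Kcnh3 in BXD_H included, and 25 kept direction alone. Fits in which a gene did not meet the filter are not counted. For genes without a test, 135 alternatives moved the log2 change by less than its spread within groups, and 55 by at least that. All 55 came from another pseudocount, which changes the scale itself, or from subtracting the listed median. That subtraction turned the 14 untested genes with a higher mean lower. No fit that left out libraries was among the 55. Depth limits genes under 0.5 FPKM, many with under 10 fragments in a Control library.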

Other observations

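Bestrophin channel genes, which the symbol rule does not take, were also listed and were picked here after their values were seen. Best4-ps, annotated as a pseudogene in mouse, stood at 1.41, 0.520 and 2.10 FPKM in Control and at 0.140, 0.130 and 0.190 FPKM in DSS. Best1, an anion channel, stood at 0.300, 0.230 and 0.240 FPKM in Control and at 0.730, 0.610 and 0.570 FPKM in DSS. Both were without overlap between the groups and below the filter on low values, so neither was tested.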
